A study of Hydra vulgaris with 32 samples.

Results

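The 173 loci described here lost their RNA after all 3 treatments given to Hydra polyps, and lost it at an intermediate speed after hydroxyurea. They were chosen by measured values among the 14792 loci of the authors' normalized table, in which the rows of a locus were summed and replicates averaged. The control mean was at least 130 on days 4 and 11. The means after hydroxyurea on day 11, after heat shock without replicate B and after colchicine were each at most 0.1 times the control mean of day 11. The mean after hydroxyurea on day 4 was above 0.08 and at most 0.25 times the control mean of day 4. In all, 397 loci met the late limits. Of these, 127 were already at or under the lower limit on day 4, 173 are the members, and 97 were still above the upper limit.

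Messenger RNA was sequenced from central body columns, without apical and basal ends, of the thermosensitive Hydra strain Sf-1, in 32 libraries. Polyps were fed 3 times a week until the experiment began and were starved from then on, in all groups. Untreated controls were taken after 4, 5, 7 and 11 days of starvation, and gave 3 libraries a day before day 11 and 4 libraries then. Treatment with 10 mM hydroxyurea lasted for 3 periods of 24 h with pauses of 12 h, and polyps were sampled 4, 5, 7 and 11 days after its start, with 3 libraries a day. Heat shock at 28 °C for 62 h (4 libraries) and colchicine at 0.4% for 8 h (3 libraries) were followed by sampling on day 9 after the start of treatment and after 11 days of starvation. Both were set against the control of day 11, which had starved for as long. Nothing in the labels says whether the libraries of a group came from separate cultures or how many polyps each holds, so p-values measure only the spread between these libraries.

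Hydra carries interstitial stem cells, which divide fast and give rise to nerve cells, stinging cells, gland cells and germ cells, beside epithelial stem cells, which divide more slowly and build the body layers. Hydroxyurea blocks the making of DNA building blocks and strikes cells that are copying their DNA, colchicine stops microtubule assembly, and in Sf-1 raised temperature leads to the loss of interstitial cells. The study title names the depletion of fast cycling cells as the purpose of all 3 treatments. The identifiers of the files carry no gene names, and 0 of them matched a table of 28925 Hydra genes, so loci are named by locus number, no roles are given, and neither the labelled tissue nor the loss of any cell type could be checked with marker genes. In bulk tissue, fewer cells of a type and less RNA per cell cannot be told apart.

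Library totals ranged from 13.1 to 36.6 M (mega) counts, and the 12 libraries tested below held 23.6 to 34.4 M. Colchicine replicates B and C were the shallow ones, with 15.2 and 13.1 M against 30.8 M in replicate A. Heat shock replicate B, with 26.0 M counts, stood apart from the other heat shock libraries in the members, and heat shock values are therefore given with and without it. Replicates of a group differed by more than sampling noise in every pair.

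The values that chose the members are a description. In the authors' normalized signal, hydroxyurea day 4 stood at 8.16% to 24.9% of control over the 173 loci, with a median of 15.4%. Medians of the late groups were 0.902% for hydroxyurea day 11, 1.34% for heat shock without replicate B and 1.12% for colchicine, and the highest values were 9.78%, 9.90% and 9.90%. At the lower limit, loc01147 was inside at 8.16% and loc23762 outside at 7.95%. At the upper limit, loc19950 was inside at 24.9% and loc13710 outside at 25.0%. The pairs on either side of a limit had nearly the same day 4 value.

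In untreated polyps the members spanned a wide range of levels. Levels are given as CPM, the counts of a locus per M counts of the library, with the total scaled by TMM factors. CPM is not per length, so levels are compared between libraries and not between loci. The median member had 50.8 CPM in control day 4, 42.8 on day 5, 38.5 on day 7 and 45.0 on day 11. All members together held 15156 to 23034 CPM in a control library. Replicates of a control group had a median coefficient of variation of 8.14% to 14.5%. Control levels were thus steady in the median next to what followed. Single members moved more, as control day 7 stood at 35.8% to 173% of control day 4, with quartiles of 70.3% and 91.2%.

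After hydroxyurea the members fell in steps. In percent of the control mean of the same day, the median member stood at 18.5%, 16.6% and 11.5% in day 4 replicates A, B and C. On day 5, which the choice of members did not use, it stood at 9.15%, 7.65% and 5.20%. On day 7, also not used, it stood at 1.34%, 1.22% and 1.25%. The 3 libraries of a day did not overlap with those of the next in this median. On day 11 it was 1.09%, 1.01% and 0.747%, little below day 7. Locus by locus, 170 of 173 had a lower percentage on day 5 than on day 4 and 167 a lower one on day 7 than on day 5. From day 7 to day 11 this held for 119. The rule set a lower limit on day 4 and an upper limit on day 11, so these counts are partly built in. The same counts were not taken over all loci.

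**Figure D1:**
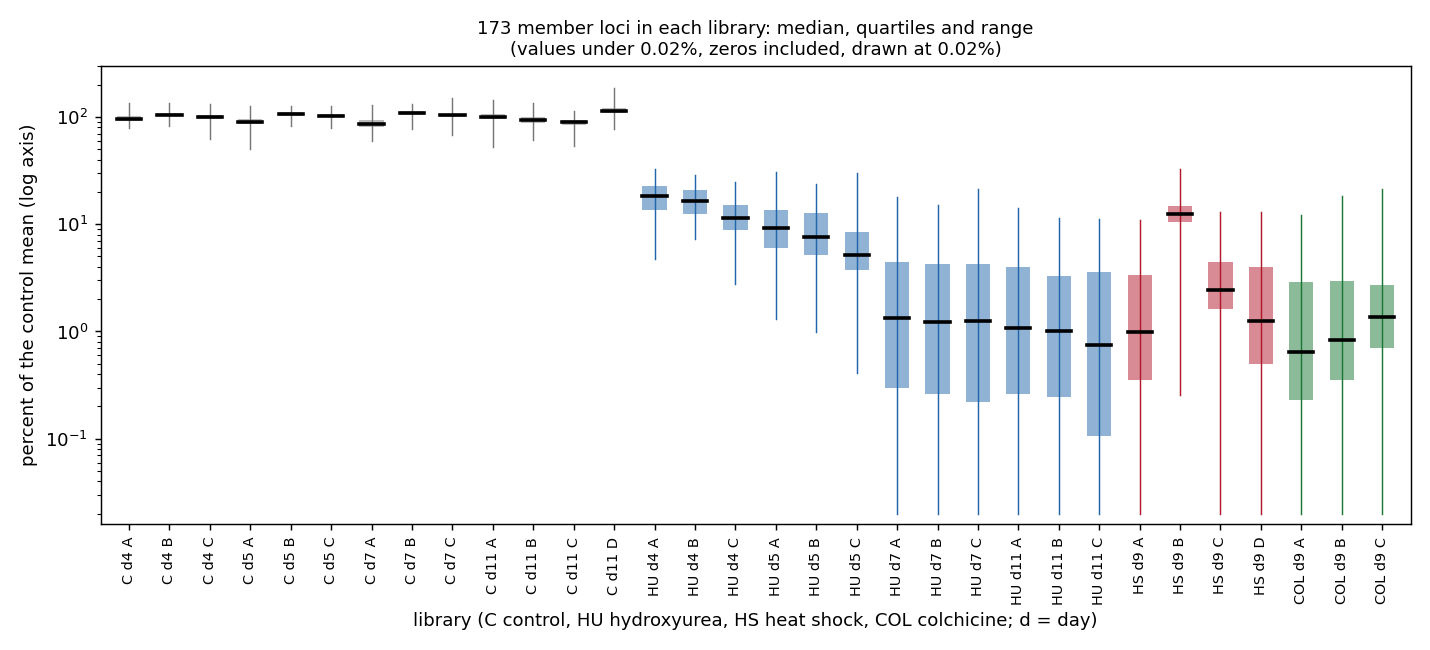
Percent of the control mean (vertical axis, log scale) of the 173 member loci in each library (horizontal axis), with the median as a black line, quartiles as a box and the range as a thin line; each control library is set against its own group's mean, and heat shock and colchicine against control day 11. Hydroxyurea medians lie at 11.5% or more on day 4 and at 1.34% or less on day 7, and heat shock replicate B, at 12.3%, lies apart from replicates A, C and D.

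The summed level of the members went the same way. It was 3680, 3349 and 2582 CPM in the day 4 hydroxyurea libraries and 1663, 1527 and 1049 CPM on day 5. On day 7 it was 271, 256 and 244 CPM, and on day 11 it was 287, 255 and 244 CPM. The level reached by day 7, 1.41% to 1.56% of the control sum, was close to that of day 11, 1.25% to 1.47%. No member was at 0 counts in any control, hydroxyurea day 4 or hydroxyurea day 5 library, whereas 12, 14 and 24 members were at 0 in day 7 replicates A, B and C. Since the reads carry no molecular identifiers, they do not count molecules one by one, and floors given below cover counting error only.

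Days 5 and 7 were tested against the controls of the same day with edgeR's quasi-likelihood test on counts per locus, fitted over the 12 libraries of those days, with Benjamini-Hochberg adjustment over 16116 loci and a threshold of 0.05. All 173 members passed the filter on low counts, but 15 of them would not have passed on the hydroxyurea libraries alone, so their being lower was partly built in and the counts of members give no support of their own. On day 5, all 173 members were lower, against 18.5% of all loci tested, and their median log2 fold change was -3.77, against 0.00 for all loci. On day 7, all 173 were lower, against 22.1% of all loci, with a median of -6.23, against -0.02. In 33 members every day 7 hydroxyurea library had at most 3 counts. With these at the bound that 3 counts allow, the median was -6.11.

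The change of the hydroxyurea effect from day 5 to day 7 was also tested, as a measure of how much further the loss went between these days. The effect was larger on day 7 by adjusted p in 119 of 173 members and smaller in 0, in edgeR's quasi-likelihood test. Over all loci, 2.28% were called in the first direction and 0.292% in the second. The rule set a lower limit on the earliest hydroxyurea day and an upper limit on the latest, so a fall in between was partly built in. Some members, as given above, would also not have passed the filter on the hydroxyurea libraries alone. The count of members called therefore describes how many fell further between days 5 and 7, and gives no support of its own. The median change of the members was -2.47 on the log2 scale (quartiles -4.45 and -1.03), or -2.24 with the 33 loci at their bound, against -0.03 for all loci. The fitted change was negative in 168 members. Of the 54 that did not pass, 26 had an unadjusted p under 0.05. With all 32 libraries in the fit, 39 members passed, all of them among the 119.

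**Figure D2:**
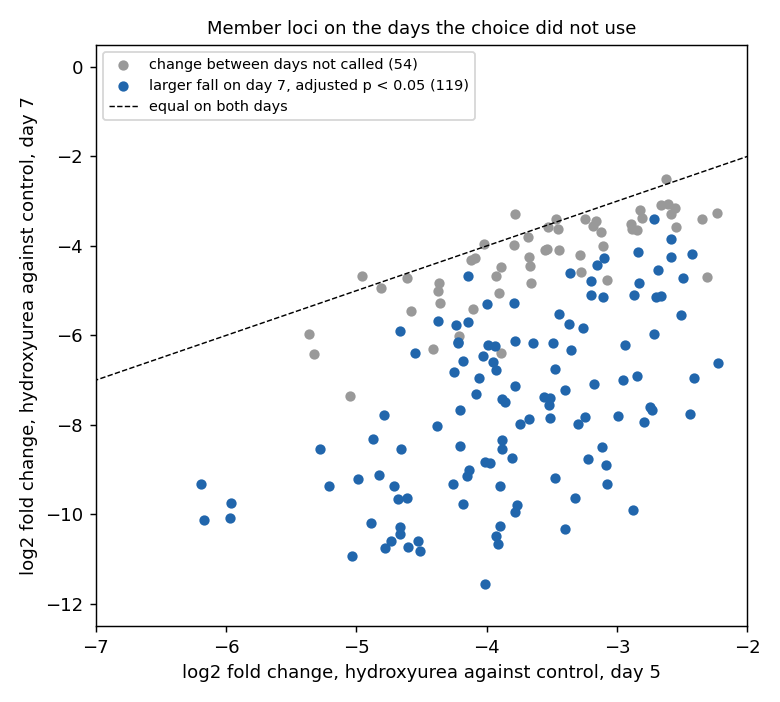
Fitted log2 fold change of hydroxyurea against control on day 5 (horizontal axis) and day 7 (vertical axis), 1 point per member locus, coloured by whether the change between days passed the adjusted p. Of the 173 loci, 168 lie below the dashed line of equal change, among them the 119 that passed; fitted values under about -10 include loci with at most 3 counts in every day 7 hydroxyurea library.

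Between days 5 and 7 of starvation alone, the control levels of the members moved little in the median. The median log2 fold change of control day 7 against day 5 was -0.14, and 0 members passed the adjusted p in edgeR or in DESeq2, beside 0% of all loci in edgeR and 30 lower and 9 higher of 14506 loci in DESeq2. Unadjusted p was under 0.05 for 14 members in edgeR. The 2 members with the largest fitted change were loc08240 and loc08866. Locus loc08240 had 73.4, 93.6 and 90.0 CPM in control day 5 and 41.7, 57.7 and 51.0 CPM in control day 7, with a log2 fold change of -0.76 ± 0.21 (SE) and an adjusted p of 0.720 in edgeR. Locus loc08866 had 74.9, 103 and 102 CPM on day 5 and 41.5, 70.0 and 54.4 CPM on day 7, with -0.74 ± 0.31 (SE) and an adjusted p of 0.934. All control libraries of day 7 lay under those of day 5 in both loci, although neither difference passed the test.

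The same 2 loci were called lower under hydroxyurea on both days. Locus loc08240 had 6.25, 6.06 and 2.59 CPM on hydroxyurea day 5 and 1.28, 1.27 and 1.02 CPM on day 7. The change of its hydroxyurea effect between days was -1.31 ± 0.38 on the log2 scale with an adjusted p of 0.112 in edgeR, against 0.0159 with DESeq2 and 0.000462 without hydroxyurea day 5 replicate C. Locus loc08866 had 9.61, 6.49 and 2.56 CPM on day 5 and 3.01, 2.17 and 2.36 CPM on day 7, with a change of -0.58 ± 0.51 and an adjusted p of 0.673. Neither change passed in the fit over 12 libraries.

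The 2 members with the highest control CPM, a value that also depends on length, were loc02593 and loc12178. Locus loc02593 had 3163, 3455 and 3220 CPM in control day 5 and 2962, 3091 and 2970 CPM in control day 7. Hydroxyurea left 169, 119 and 80.3 CPM on day 5 and 1.75, 2.71 and 1.58 CPM on day 7. All hydroxyurea libraries of day 7 lay under those of day 5, and those of day 5 under every control. The log2 fold change was -4.74 ± 0.25 (SE) on day 5 and -10.60 ± 0.33 on day 7, with adjusted p of 4.64e-08 and 2.75e-10 in edgeR, and the change between days was -5.86 ± 0.35 with an adjusted p of 1.62e-06. On hydroxyurea day 4 it had 377, 282 and 239 CPM, and on day 11 it had 4.13, 2.94 and 1.06 CPM.

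Locus loc12178 had the same course. It had 1166, 1751 and 1621 CPM in control day 5 and 1084, 1542 and 1443 CPM in control day 7. Hydroxyurea left 68.8, 70.1 and 46.5 CPM on day 5 and 1.50, 1.60 and 2.21 CPM on day 7. The groups again did not overlap. The log2 fold change was -4.61 ± 0.21 (SE) on day 5 and -9.63 ± 0.27 on day 7, with adjusted p of 7.13e-09 and 5.88e-11 in edgeR. The change between days was -5.02 ± 0.30, with an adjusted p of 1.20e-06.

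The members with the largest further fall from day 5 to day 7 were loc01886 and loc17340. Locus loc17340 had 476, 627 and 587 CPM in control day 5 and 424, 585 and 566 CPM in control day 7. With hydroxyurea it had 188, 159 and 133 CPM on day 4, 91.8, 87.5 and 50.2 CPM on day 5, and 0.641, 0.533 and 0.473 CPM on day 7. Its day 5 libraries therefore still held 13.6% of control on average, and its day 7 libraries 0.105%. The log2 fold change was -2.88 ± 0.20 (SE) on day 5 and -9.90 ± 0.31 on day 7, with adjusted p of 4.41e-07 and 1.43e-10 in edgeR. The change between days was -7.03 ± 0.35 with an adjusted p of 4.39e-07.

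Locus loc01886, which holds 1 sequence, had 77.3, 95.9 and 89.7 CPM in control day 5 and 67.0, 93.2 and 81.8 CPM in control day 7. With hydroxyurea it had 6.91, 5.09 and 4.12 CPM on day 5, and at most 1 count in a day 7 library. Set against the floor of 3 counts, averaged over the 3 libraries, it was at least 745-fold lower than in day 7 controls. The difference from control had an adjusted p of 2.34e-09 on day 5 and 3.66e-11 on day 7 in edgeR, and the change between days had 1.54e-06. Its log2 fold change on day 5 was -4.01 ± 0.17 (SE).

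In other members no change of the hydroxyurea effect between days 5 and 7 was called. The 2 with the most positive fitted change were loc06447 and loc20503, and neither change passed the test. Locus loc06447 had 10.3, 9.48 and 13.1 CPM in control day 5 and 6.89, 8.34 and 7.22 CPM in control day 7. After hydroxyurea it had 0.516, 1.27 and 0.681 CPM on day 5 and 0.780, 1.03 and 0.552 CPM on day 7. The control libraries of day 7 lay under those of day 5, a difference that did not pass the adjusted p. The hydroxyurea libraries of the days overlapped, and all lay under every control. The log2 fold change was -3.78 ± 0.28 (SE) on day 5 and -3.29 ± 0.28 on day 7, with adjusted p of 2.92e-07 and 9.29e-07 in edgeR, and the change between days was 0.49 ± 0.40 with an adjusted p of 0.639.

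Locus loc20503 had 7.88, 19.3 and 20.1 CPM in control day 5 and 11.3, 13.6 and 24.4 CPM in control day 7. After hydroxyurea it had 3.11, 3.97 and 1.25 CPM on day 4, 0.287, 0.466 and 0.746 CPM on day 5 and 0.891, 0.656 and 0.355 CPM on day 7. The libraries of days 5 and 7 overlapped, and those of day 4 lay above both. The log2 fold change was -4.96 ± 0.51 (SE) on day 5 and -4.67 ± 0.49 on day 7, with adjusted p of 1.87e-05 and 1.75e-05 in edgeR. The change between days was 0.29 ± 0.76, with an adjusted p of 0.915.

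**Figure D3:**
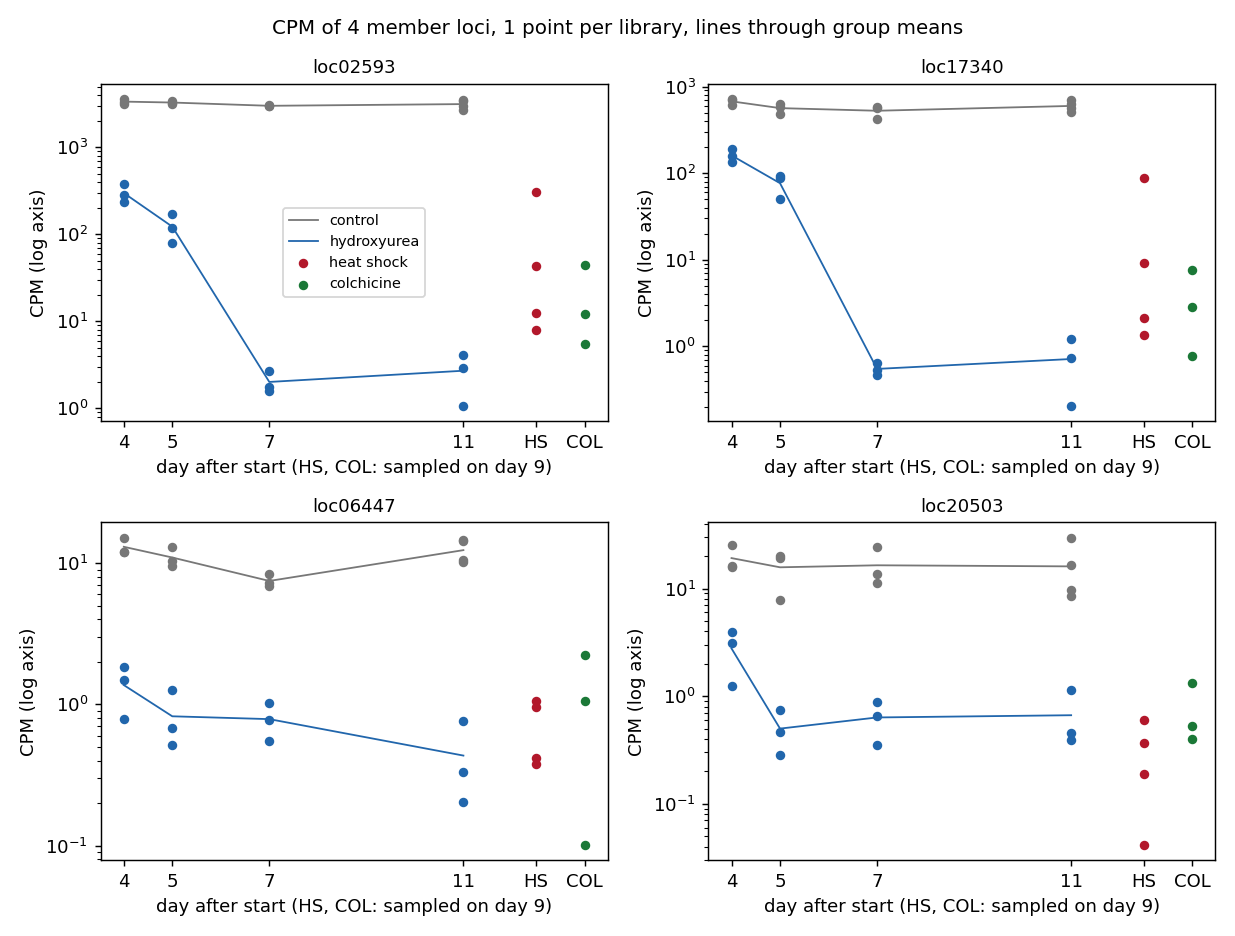
CPM (vertical axis, log scale) of 4 member loci by day after the start, with 1 point per library, lines through group means, and the heat shock (HS) and colchicine (COL) libraries at the right. Loci loc02593 and loc17340 fell further between days 5 and 7 of hydroxyurea, to 2.71 CPM or less and 0.641 CPM or less, whereas the day 5 and day 7 libraries of loc06447 and loc20503 overlap.

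The members just inside the limits of the rule are given as a description. The rule itself set their day 4 values apart, and loc01147 was at the floor of counts on day 7, so their later courses are not compared. Locus loc19950, just inside the upper limit, had 55.2, 85.0 and 80.9 CPM in control day 5 and 40.9, 83.5 and 80.7 CPM in control day 7. Hydroxyurea left 14.2, 14.8 and 11.6 CPM on day 5 and 0.279, 0.328 and 0.355 CPM on day 7. On average 18.4% of control was left on day 5 and 0.469% on day 7. The log2 fold change was -2.44 ± 0.24 (SE) on day 5 and -7.77 ± 0.37 on day 7, with adjusted p of 1.01e-05 and 9.91e-09 in edgeR, and the change was -5.33 ± 0.46 with an adjusted p of 3.07e-05.

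Locus loc01147 was just inside the lower limit. It had 5.34, 5.22 and 4.43 CPM in control day 5 and 3.48, 4.71 and 4.94 CPM in control day 7. After hydroxyurea it had 0.315, 0.297 and 0.292 CPM on day 5 and at most 2 counts in a day 7 library, which was at least 40.4-fold lower than in controls by the same floor. Both days passed the test, with adjusted p of 1.77e-07 and 1.94e-08 in edgeR. The change between days had an adjusted p of 0.0348, which did not hold in 14 of 19 alternatives and was 0.528 with all 32 libraries fitted.

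How much RNA was left on day 7 split the members into bands. Under 1% of control was left in 78 loci (45.1%), 1% to under 5% in 57 loci (32.9%) and 5% or more in 38 loci (22.0%). The bands were nearly alike on day 4, with medians of 15.3%, 14.5% and 16.5%, and on day 5 the medians were 6.55%, 6.68% and 11.7%. On day 7 they were 0.224%, 2.39% and 8.27%, and on day 11 they were 0.183%, 1.84% and 6.84%. The bands had the same order on day 11, a day whose values the choice of members had limited, so this order is a description. The change between days was called in 77, 36 and 6 of these loci, but day 7 enters both the bands and that change.

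The bands had the same order after heat shock and colchicine. Both groups also entered the choice of members, heat shock without replicate B, so these values too are a description. Heat shock without replicate B left medians of 0.880%, 2.50% and 6.95%, and colchicine left 0.632%, 1.89% and 5.55%. In heat shock the order held in each library: replicate A had 0.330%, 1.81% and 6.39%, replicate C 1.62%, 2.96% and 6.77%, and replicate D 0.498%, 2.51% and 7.29%. In colchicine it held in each library as well, with 0.265%, 1.84% and 6.23% in replicate A, 0.458%, 1.64% and 6.15% in replicate B and 1.15%, 1.54% and 2.59% in replicate C. The bands lay closest together in colchicine replicate C, the shallowest library.

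Over the 173 members the percentage left on hydroxyurea day 7 and after heat shock without replicate B had a Pearson r of 0.90 and a Spearman rho of 0.92. The values were 0.92 and 0.94 for days 7 and 11 of hydroxyurea, and 0.78 and 0.66 for day 7 and colchicine. The percentage on day 4 was hardly related to that on day 7, with 0.18 and 0.17, whereas day 5 was between, with 0.50 and 0.50 against day 7. The rule limited both the day 4 and the late values to narrow ranges. These are correlations across loci, which share the libraries and their depth and are not independent replicates. Day 7 was set against other control libraries than heat shock, colchicine and day 11, which share the day 11 control. Against the log2 CPM of control day 5, the percentage left on day 7 had -0.16 and -0.11.

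**Figure D4:**
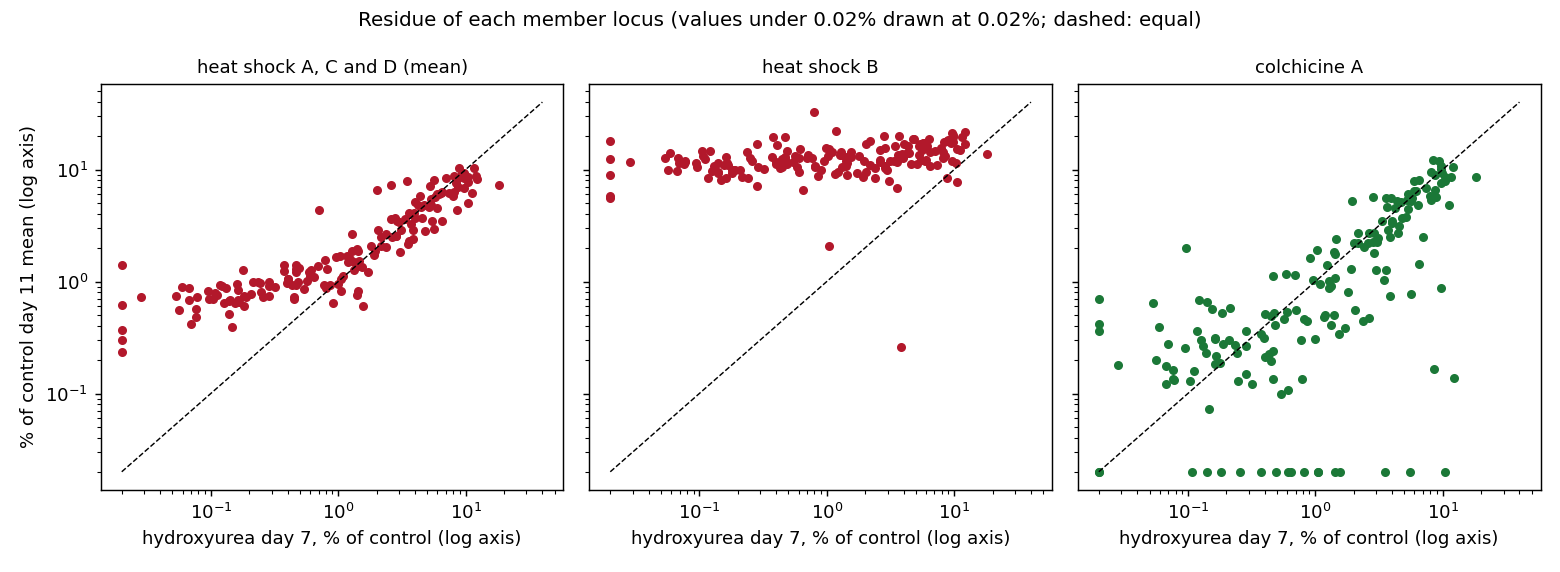
Percent of control left after heat shock or colchicine (vertical axes, log scale) against percent left on hydroxyurea day 7 (horizontal axes, log scale), 1 point per member locus. Points lie near the dashed line of equal values for heat shock replicates A, C and D above about 1%, and heat shock replicate B lies higher, with medians of 11.5%, 12.8% and 15.2% for loci with under 1%, 1% to 5% and 5% or more left on day 7.

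Heat shock replicate B held far more of the members' RNA than the other heat shock libraries. The median percentage of control was 0.979%, 12.3%, 2.43% and 1.24% in replicates A, B, C and D, and the summed level was 280, 2389, 520 and 330 CPM. Replicate B was above the other 3 heat shock libraries in 168 of 173 members (97.1%), against 4282 of 16116 loci tested (26.6%). The neighbouring sets were alike in this, with 124 of 127 loci that hydroxyurea lowered faster and 97 of 97 that it lowered more slowly. In all 173 members replicate B was under every control day 11 library. That count was not taken over all loci, and the rule chose the members for high control values. The choice of members required low values in replicates A, C and D but left out replicate B, so part of the gap between these libraries is built in. In replicate B, 136 members stood above 10% of control. With replicate B in the heat shock mean, the rule gave 165 loci, of which 164 are members. Replicate B held 26.0 M counts, the fewest of the heat shock libraries, against 34.5, 29.0 and 34.5 M in replicates A, C and D. This total was within the range of all libraries, and why replicate B stands apart was not tested.

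The 2 members in which replicate B lay farthest above replicates A, C and D were loc17340 and loc17646. Locus loc17340 had 1.34, 87.3, 9.09 and 2.11 CPM in heat shock replicates A, B, C and D, against 503 to 697 CPM in control day 11. Locus loc17646, which holds 1 sequence, had 0.0840, 7.22, 0.685 and 0.158 CPM, against 56.4 to 77.5 CPM. Replicate B was the highest heat shock library in both, and replicate C the next. The reverse was seen in loc20503, named above, with 0.364, 0.0415, 0.190 and 0.599 CPM, where replicate B was the lowest.

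Locus loc17646 also fell far after hydroxyurea. It had 52.8, 63.0 and 63.7 CPM in control day 5 and 45.1, 56.8 and 57.8 CPM in control day 7. After hydroxyurea it had 3.01, 1.82 and 2.08 CPM on day 5 and at most 2 counts in a day 7 library, which was at least 491-fold lower than in controls by the same floor. Adjusted p was 6.34e-10 on day 5 and 3.87e-11 on day 7 in edgeR. For the change between days it was 1.59e-05, and 0.103 with all 32 libraries fitted.

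Percentages in replicate B were also set beside those of hydroxyurea days 4, 5 and 7. Over the 173 members, replicate B had a Pearson r of 0.47 with hydroxyurea day 4, 0.53 with day 5 and 0.36 with day 7, and Spearman rho of 0.50, 0.59 and 0.41. Heat shock without replicate B had 0.47 and 0.50 with day 5, beside the 0.90 and 0.92 with day 7. The points share libraries, as above, and the difference between these correlations was not tested. The residue bands left 11.5%, 12.8% and 15.2% in replicate B, a narrower spread than in any other heat shock library. The 127 loci that hydroxyurea lowered faster stood at 9.13% in replicate B, and the 97 that it lowered more slowly at 18.1%. Without it, heat shock left 1.09% and 2.14%.

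After colchicine the median member stood at 0.648%, 0.836% and 1.37% of control in replicates A, B and C, and the summed level was 272, 339 and 388 CPM. Replicate A, the deepest, was the lowest, and replicate C, the shallowest, the highest. In loc02593 the 3 libraries had 5.53, 12.1 and 45.0 CPM, and in loc17340 they had 0.774, 2.84 and 7.68 CPM. Both loci went in the order of depth, whereas loc06447, with 1.06, 2.24 and 0.101 CPM, did not. The part of depth in this was not tested. The spread between replicates was wide after treatment, with a median coefficient of variation over members of 65.3% in colchicine and of 23.5% to 31.6% in the hydroxyurea groups. It was 126% in heat shock with replicate B.

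The neighbouring sets, cut by the same late limits and another day 4 value, are given as a description, since the rule placed them on either side. Hydroxyurea day 5 left a median of 1.45% in the faster set, 7.44% in the members and 21.2% in the slower set, and day 7 left 0.407%, 1.29% and 1.97%. The order by day 4 was thus still seen on days 5 and 7, but the sets were close together by day 7. The effect was larger on day 7 than on day 5 in 31 of 127 faster loci and 82 of 97 slower ones, by the same edgeR test, beside the 119 of 173 members. Over all loci it was larger in 2.28%. The day 4 cut and the day 11 limit bear on how far each set could still fall, so these counts too are a description. The 2 loci outside the members whose profile over all 32 libraries was most like the members' mean profile came from both sides. On log2 CPM with a prior of 2 counts, loc15956 of the slower set had a Pearson r of 0.995 and loc08947 of the faster set 0.993.

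In loc15956 hydroxyurea left 37.8, 34.6 and 26.5 CPM on day 4, 13.4, 10.0 and 7.75 CPM on day 5 and 1.67, 1.60 and 1.50 CPM on day 7. In loc08947 it left 7.53, 5.62 and 4.85 CPM on day 4, 2.78, 1.86 and 2.11 CPM on day 5 and 0.306, 0.287 and 0.276 CPM on day 7. Controls held 96.2 to 148 CPM of the first and 75.7 to 90.1 CPM of the second. Both fell at each of these steps without overlap between days.

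The member loci hold 644 sequences of the count table, with a median of 3 and a maximum of 18 a locus. A single sequence makes up 53 loci (30.6%), against 30.8% of all loci tested, and the leading sequence held a median of 90.2% of the control CPM of a locus, against 94.4%. Of these sequences, 60.2% carry a code starting with tr, against 64.5%, and the rest one starting with vl. By these measures the members resembled the other loci tested, without a test of the difference.

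Most sequences of the members fell with their locus. Of 412 that passed the filter in a fit per sequence, 362 were lower on hydroxyurea day 7 and 0 higher in edgeR's quasi-likelihood test, against 13.7% lower and 8.07% higher over 34086 sequences. Their loci were chosen for low values after hydroxyurea, and the filter lets sequences pass on control counts alone. Their being lower was thus partly built in, and these counts give no support of their own. In 137 of the 173 loci every tested sequence was lower. The other 50 sequences, at 36 loci, did not pass, and 8 of them had a fitted change above 0. The split by the day 7 call itself fixes that their share rises on that day. They held 0.347% of the members' CPM in control day 7 but 11.0% in hydroxyurea day 7, while the sequences called lower went from 99.5% to 87.2%. Of 78 loci with at least 2 sequences and at least 30 counts on hydroxyurea day 7, 51 had the same leading sequence there as in controls. Neither this count nor that of the 137 loci above was taken over all loci, so both describe the members only. Sequences of a locus can share reads, and how the authors' counting split them is not given in the sources used here.

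The sequences that did not pass and had the most CPM on hydroxyurea day 7 were chosen after their values were seen. Sequence seq44469_loc16245_tr0152676 had 2.17, 2.20 and 4.04 CPM in control day 7 and 3.57, 4.06 and 6.74 CPM in hydroxyurea day 7, with a log2 fold change of 0.73 and an adjusted p of 0.226 in edgeR. It made up 4.83% of its locus in control day 7 and 94.4% in hydroxyurea day 7, as loc16245 went from 58.1 to 5.08 CPM. Nearly all that was left of the locus was thus this sequence.

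Sequence seq03423_loc01899_tr0539328 had 2.20, 2.78 and 2.24 CPM in control day 7 and 1.87, 2.54 and 2.88 CPM in hydroxyurea day 7, with a log2 fold change of -0.03 and an adjusted p of 0.972 in edgeR. On day 7 the groups overlapped. On the days before they did not: it had 2.26, 1.37 and 1.32 CPM in hydroxyurea day 4 against 4.70, 4.51 and 4.95 CPM in controls, and 2.78, 1.99 and 1.01 CPM against 3.05, 3.52 and 4.63 CPM on day 5. Its share of loc01899 went from 3.15% to 75.2%, as the locus went from 76.3 to 3.23 CPM. In seq10072_loc04799_vl0037622 the mean went from 5.12 ± 3.13 to 1.86 ± 0.606 CPM (SD, n = 3 each), which did not pass either, with an adjusted p of 0.192 in edgeR, and its share of the locus from 5.77% to 18.1%.

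**Figure D5:**
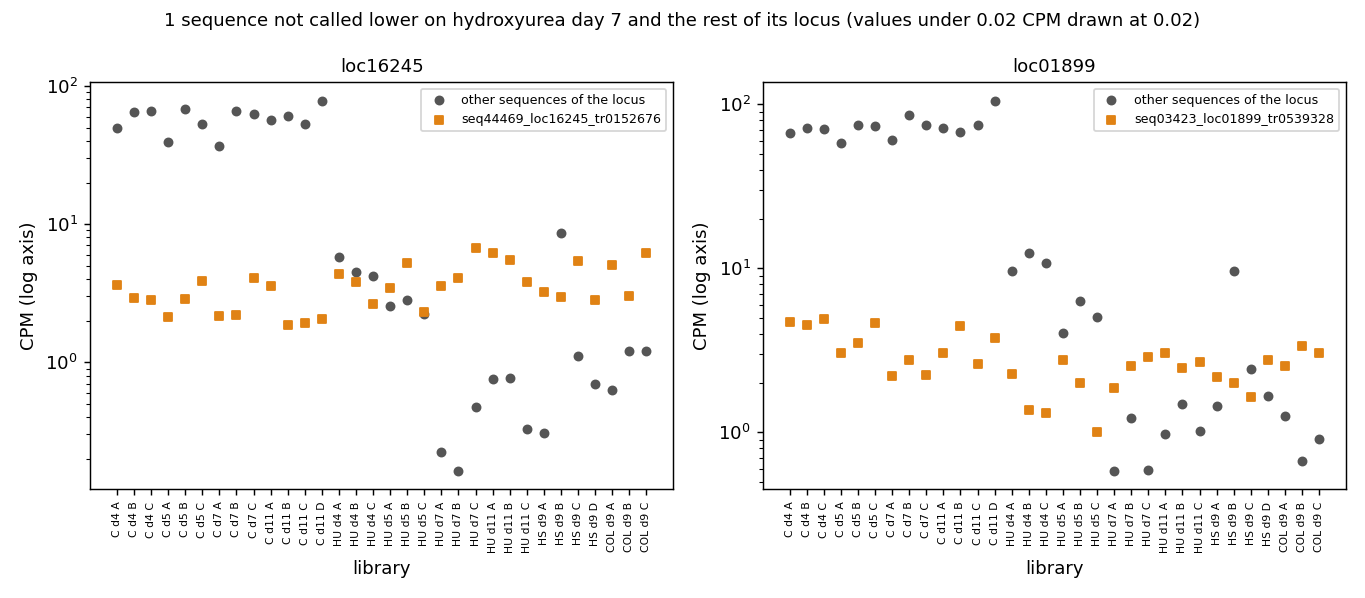
CPM (vertical axis, log scale) in each library (horizontal axis) of 2 sequences that were not called lower on hydroxyurea day 7 (squares) and of all other sequences of the same locus together (circles). Over controls and treatments the squares lie between 1.87 and 6.74 CPM for seq44469_loc16245_tr0152676 and between 1.01 and 4.95 CPM for seq03423_loc01899_tr0539328, which was under the controls of the same day on hydroxyurea days 4 and 5.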

How the data were processed

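Libraries were directional Illumina TruSeq libraries of polyA RNA from Qiagen RNeasy extracts, per the labels' protocols. The submitters' processing notes list cutadapt 1.11, Salmon 0.7.2 and DESeq2 with no role or order. The authors deposited whole-number counts for 79774 sequences at 25879 loci. They also deposited a normalized signal for 31594 sequences at 14792 loci, in which each value is the count times 1 constant per library (0.669 to 2.80). This signal was used only for the membership rule and an alternative test. Days are those of the labels; titles read 3, 4, 6 and 10 for days 4, 5, 7 and 11, and 10 for heat shock and colchicine.

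Counts were summed per locus and tested with edgeR 4.0.16 in R 4.3.3 (quasi-likelihood F-test, TMM, filterByExpr with a minimum of 10 counts, Benjamini-Hochberg), over the 12 libraries of days 5 and 7 that the rule did not use, 3 per group, with 8 residual degrees of freedom. The 16116 loci tested held 99.9% of counts. SEs are the log2 fold change divided by the square root of F. The fits were tested on simulated data. Alternatives were other size factors, no filter, DESeq2 1.42.0, limma 3.58.1 on the log2 of the deposited signal plus 1, all 32 libraries, a replicate block and each library left out. Bounds use a floor of 3 counts.

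Members and lists were chosen with earlier results of these data known. Loci are named by a rule: the 2 highest in controls, the 2 most negative and the 2 most positive changes between days, the 2 largest control changes, the 2 most raised in heat shock replicate B, loci beside the day 4 limits and the 2 most alike in profile. A criterion for loci with a sequence called higher on hydroxyurea day 7 named none. Figures were drawn with matplotlib 3.10.9.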

Additional observations from a re-analysis of the deposited data

Results flagged for a closer look

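In groups of 4 libraries, 24 measures were compared between libraries, 12 in heat shock and 12 in control day 11, by how far the outermost library lay from the next one, as a share of the range. In 7 this share passed the limit of Dixon's test. Chance flags about 1 in 20 groups, but this rate does not apply here. The members were chosen for low heat shock values with replicate B left out, and loc17340 and loc17646 were named for their level in B. All 7 were heat shock replicate B. Its median percentage of control over the members was 12.3%, against 0.979% to 2.43% in the other heat shock libraries. It had 303 CPM of loc02593, against 7.93 to 43.6 CPM, and 155 CPM of loc12178, against 3.81 to 26.0 CPM. It had 11.2 CPM of loc01886, against 0.140 to 1.45 CPM, and 87.3 CPM of loc17340, against 1.34 to 9.09 CPM. It had 7.22 CPM of loc17646, against 0.0840 to 0.685 CPM, and 16.5 CPM of loc19950, against 0.308 to 2.13 CPM. These measures share 1 library and are not independent.

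The hydroxyurea effect differed between days 5 and 7 in 119 members, by the test of that difference in edgeR, and in all of them it was larger on day 7. Over all loci tested, 2.28% were called with a larger effect on day 7 and 0.292% with a smaller one. With all 32 libraries fitted, 39 members passed. The limits that the rule set on the earliest and latest hydroxyurea days favoured this direction, so the count of members gives no support of its own.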

How the results depend on the processing

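All 173 members were lower on hydroxyurea days 5 and 7, and 0 passed between control days, in edgeR and under every alternative run. The median log2 fold change on day 7 went to -6.49 with replicates B and C alone, an alternative chosen after seeing the data. The count of members with a larger effect on day 7 (119) was 39 with all 32 libraries fitted, and the cause was not tested. Calls over all loci dropped too, from 367 with a larger and 47 with a smaller effect to 105 and 4. The count of members was 94 (replicates B and C alone) to 130 (DESeq2) in the others, and 106 to 131 with 1 library left out. In all of these fits, 37 members were called. The replicate block gave 122, of which 116 were shared. Same-lettered libraries deviated together with r of -0.0295 to 0.394, and 8 of 12 correlated best with their own letter. Pairing was taken only where every r was over 0.1, and replicate C of day 5 was under it. Without control day 7 replicate A, 1 sequence was called higher. Of the named loci, the change of loc01147 and loc17646 lost its call and that of loc08240 gained one under the alternatives given above. Membership moved with its limits, from 134 loci (upper limit 0.20) to 194 (0.30), and was 185 on CPM of all sequences, 164 of them members. Depth limits the lowest levels: in 33 members day 7 gives a bound only.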
